A study of Mus musculus with 55 samples.

Results

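Trimethylation of lysine 4 of histone H3 (H3K4me3) was mapped in mouse lung tumours of genotypes named PRM and PRMK, and the regions described here had an H3K4me3 peak in both PRM libraries and in neither PRMK library. They were chosen from the H3K4me3 peaks themselves, by merging the 4 peak lists wherever peaks shared at least 1 bp, and are called lost regions. There were 743 of them among 23220 merged regions (3.20%), with positions on mm10 throughout. Another 12848 regions had a peak in all 4 libraries and are called kept, and 293 (1.26%) had one in both PRMK libraries and in neither PRM library and are called gained.

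The tumours were grown from lung organoids injected into the left lung lobe of recipient mice, as a model of small cell lung cancer. PRM organoids carried guides against the tumour suppressors Trp53 and Rb1 and a retroviral Myc construct with luciferase. PRMK organoids had these constructs and also a guide targeting Kmt2c, the gene of an H3K4 methyltransferase. In PRMK, the H3K4me3, H3K4me2 and KMT2C samples listed 1 more guide each, targeting Meis2 in replicate 1 and scrambled in replicate 2, whereas the PRMK H3K4me1 and open-chromatin samples listed neither. RNA was compared between 3 PRMK and 3 PRM libraries; the plasmids listed for those PRMK samples include no guide against Kmt2c, and their kit, unlike the stranded one of the PRM samples, is not named, so library preparation and genotype cannot be told apart. The PRM RNA libraries are called 4, 5 and 6 after their columns. Ages of the recipients, and whether replicates were separate animals, are not given in the sources used here, so p-values measure the spread between these libraries.

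H3K4me3 sits at the starts of active or poised genes, and is strongest over CpG islands, where the SETD1 and MLL1/MLL2 enzymes that deposit it are recruited by proteins that bind unmethylated CG pairs. KMT2C (MLL3) and its relative KMT2D deposit mainly the monomethyl form, H3K4me1, at enhancers, and the dimethyl form, H3K4me2, spreads over promoters and enhancers alike. A region can therefore lose one of these marks and keep another.

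Of the 743 lost regions, 180 lay within 1 kb of a listed gene start, which gave 202 genes with a start in or within 1 kb of a lost region. The following promoters are shown because the results below turn on them. Each is the 250 bases just before a lost start, 5′ to 3′ on the gene's strand, from RefSeq on GRCm38.p6, with CG pairs in capitals.
Hoxd9: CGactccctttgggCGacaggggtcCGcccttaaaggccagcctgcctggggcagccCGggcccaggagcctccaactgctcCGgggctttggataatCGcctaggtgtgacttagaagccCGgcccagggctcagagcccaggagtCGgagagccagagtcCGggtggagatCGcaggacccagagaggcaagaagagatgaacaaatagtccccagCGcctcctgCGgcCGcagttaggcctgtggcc
Runx3: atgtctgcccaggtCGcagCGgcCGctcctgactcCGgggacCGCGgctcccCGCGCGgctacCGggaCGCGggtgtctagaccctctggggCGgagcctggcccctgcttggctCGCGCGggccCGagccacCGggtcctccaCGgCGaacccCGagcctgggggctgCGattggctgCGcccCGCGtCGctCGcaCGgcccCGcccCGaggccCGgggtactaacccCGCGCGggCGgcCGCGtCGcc
Qrfprl: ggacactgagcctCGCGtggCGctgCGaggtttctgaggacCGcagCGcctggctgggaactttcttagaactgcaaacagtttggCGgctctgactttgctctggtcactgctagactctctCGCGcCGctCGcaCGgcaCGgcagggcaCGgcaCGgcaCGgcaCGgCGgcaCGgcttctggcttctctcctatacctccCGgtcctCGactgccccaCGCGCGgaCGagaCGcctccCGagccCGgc
Robo2: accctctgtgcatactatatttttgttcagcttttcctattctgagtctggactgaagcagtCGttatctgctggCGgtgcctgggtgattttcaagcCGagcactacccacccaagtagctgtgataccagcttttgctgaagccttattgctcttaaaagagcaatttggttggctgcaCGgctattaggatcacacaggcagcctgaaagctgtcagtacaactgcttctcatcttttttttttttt
Cd44: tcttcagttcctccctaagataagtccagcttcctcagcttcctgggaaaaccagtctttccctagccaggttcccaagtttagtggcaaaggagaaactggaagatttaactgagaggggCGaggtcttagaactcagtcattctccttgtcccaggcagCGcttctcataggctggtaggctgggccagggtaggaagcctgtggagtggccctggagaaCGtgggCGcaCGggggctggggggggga
Ppp1r3a: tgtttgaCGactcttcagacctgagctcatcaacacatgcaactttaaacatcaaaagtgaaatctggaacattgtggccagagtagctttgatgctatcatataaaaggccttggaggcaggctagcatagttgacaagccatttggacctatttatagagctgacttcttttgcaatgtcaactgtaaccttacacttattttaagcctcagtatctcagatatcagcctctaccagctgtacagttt

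They lie at chr2:74697513-74697762 for Hoxd9 (plus strand, 13 CG pairs), chr4:135152295-135152544 for Runx3 (plus strand, 38 CG pairs), chr6:65381044-65381293 for Qrfprl (plus strand, 28 CG pairs), chr16:75092771-75093020 for Robo2 (minus strand, 4 CG pairs), chr2:102901666-102901915 for Cd44 (minus strand, 5 CG pairs) and chr6:14755275-14755524 for Ppp1r3a (minus strand, 1 CG pair). Their CpG content ranged from that of a CpG island at Runx3 and Qrfprl to a single pair at Ppp1r3a. In these 250 bases the median was 7 CG pairs (quartiles 4 and 13) at 243 listed starts within 1 kb of a lost region. It was 17 (10 and 24) at 13482 kept starts and 2 (1 and 4) at 16867 starts with no H3K4me3 peak in any library. The rule for kept starts was stricter: a kept region and a peak of both PRMK libraries within 1 kb, and no lost region there. At least 10 pairs were present at 37.9% of lost, 77.8% of kept and 37.8% of all 32851 listed starts. Lost starts thus lay between kept promoters and unmarked ones in CpG content. So did the 91 gained starts, with a median of 10 (5 and 16), and the median of all listed starts was 6 (2 and 16). The same 250 bases were searched on both strands for 5 short motifs, where a match is only a match of letters. CAGCTG, an E-box core, was in 20.6% of lost, 11.3% of kept and 13% of all starts. The CACGTG E-box bound by Myc was in 5.76%, 8.40% and 6.02%, the AP-1 motif TGANTCA in 6.17%, 3.6% and 6.75%, TGACAG, the core of Meis sites, in 14.4%, 13% and 15.9%, and TATAAA in 8.64%, 5.42% and 12.4%.

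The lost regions were narrow and weak in the PRM libraries that defined them. Their median width was 2499 bp, from 1031 to 17439 bp, against 4652 bp for kept regions. Narrowness was not particular to lost regions, since gained regions had a median of 2861 bp. Regions called in every library but PRMK library 2 had 2539.5 bp. Median total H3K4me3 signal of lost regions, the sum over the peak in the deposited lists, was 29869 in PRM library 1 and 22219 in PRM library 2. Kept regions had 197135 and 185090 there. Gained regions were weak too, with 44281 and 33030 in PRMK libraries 1 and 2. Among regions with a peak in the same library, the median lost region ranked at the 11.1 percentile in PRM library 1 and the 28.2 percentile in PRM library 2, and only 18 of 743 ranked above the median of library 1 and 72 above that of library 2. The weakest had a signal of 20225 in library 1, whose lowest listed peak had 20201.

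**Figure D1:**
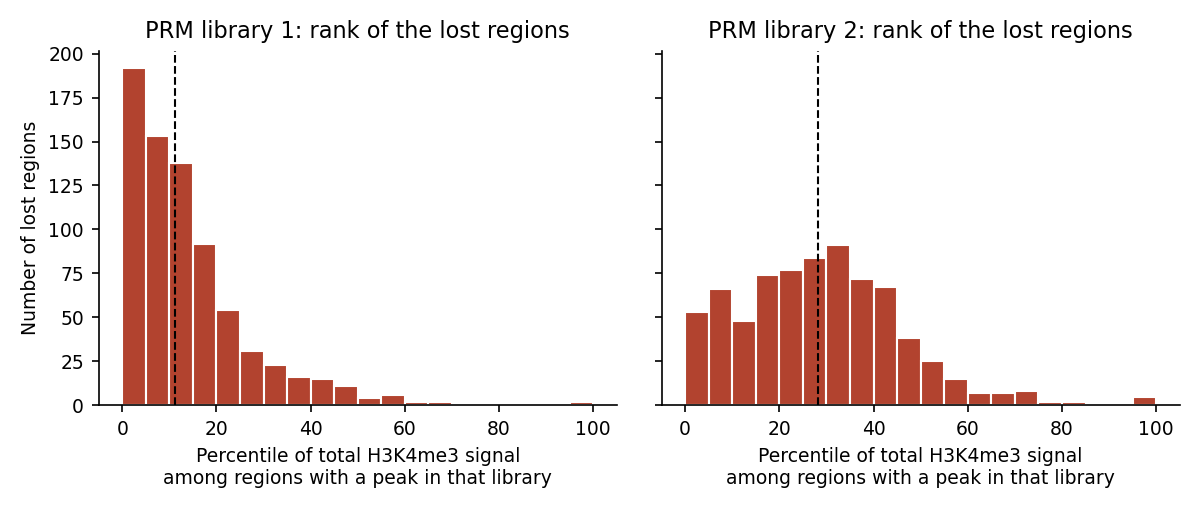
Number of lost regions (y axis) by the percentile of their total H3K4me3 signal among all regions with a peak in that library (x axis), for PRM library 1 (left) and PRM library 2 (right). Dashed lines mark the medians, 11.1 and 28.2, and most lost regions lie towards the left of both panels.

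Regions just outside the rule were close in signal. Another 987 regions had a peak in both PRM libraries and in 1 PRMK library, 930 of them in PRMK library 1, and there the lowest PRMK signal was 15996 against a lowest listed peak of 15993. Just inside the rule, 3 lost regions had a PRMK peak 8, 22 and 149 bp away, and 195 (26.2%) had one within 10000 bp. The count was 5421 without PRM library 1, 1619 without PRM library 2, 1682 without PRMK library 1 and 803 without PRMK library 2. Leaving out a library also drops its condition and so loosens the rule. A rise was therefore built in, and only its size differed between libraries. With equal numbers of peaks per library it was 330, and 179 of the 743 regions overlapped one of those. When PRM peaks below the median signal of their own list were left out and the PRMK lists were kept whole, 9 regions remained, all of them among the 743.

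Those 9 regions had a peak at or above the median of the list in both PRM libraries and no PRMK call. Of these, 3 lay at listed starts: that of Kirrel, a nephrin-like adhesion protein, at chr3:87171494-87176119, that of Mamld1, a mastermind-like protein, at chrX:71048560-71054404, and that of Asic2, an acid-sensing ion channel, at chr11:81151274-81154313. Another 2 lay at the end of a gene span: one at Sdc2, which encodes syndecan 2, and one between the divergent imprinted genes Peg10 and Sgce at chr6:4744895-4749851. Others lay inside Tcerg1l and Arhgef10l and nearest to Tmco5. The region in Tcerg1l, chr7:138260119-138269352, had a signal of 233549 in PRM library 1 and 258015 in PRM library 2, and spanned 9234 bp. Of the 9, H3K4me2 was still called in both PRMK libraries at Kirrel, Mamld1 and the region near Tmco5, and in neither at Peg10 and Arhgef10l.

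Most lost regions were away from listed gene starts, and the list lacks some genes. On the chromosomes with listed starts, 180 of 725 (24.8%) lay within 1 kb of one, against 73.6% of kept and 27.5% of gained regions. Another 329 (45.4%) lay elsewhere in a gene span and 216 (29.8%) outside all spans, where kept regions had 22.1% and 4.29%. Of all 743 lost regions, 76 (10.2%) had no listed start within 1 kb but did have an end of a protein-coding gene there. Such an end may be an unlisted start. The median distance to a listed start was 14061 bp, and such distances can overstate the distance to a gene start. The farthest 5 were nearest to Ralyl, Sybu, Msra, Nkain3 and Chrac1, and the one near Ralyl, at chr3:12662710-12664515, was 2306685 bp from a listed start. Lost regions made up 6.07% of the merged regions on chromosome 8 (75 of 1236) and 5.01% on chromosome 4 (82 of 1637), and 1.29% on chromosome 19 and 1.37% on chromosome 16. RNA medians of chromosomes 8 and 4 stood -0.160 and 0.159 (log2) from the median of all genes tested. The runs with the most members were 5 lost regions around Pde4b, a cAMP phosphodiesterase, over chr4:102253650-102512670, 5 from Trmt1 to Dand5 with Nfix between them, over chr8:84696952-84812274, and 5 around the adhesion gene Clmp, over chr9:40685104-40774058.

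**Figure D2:**
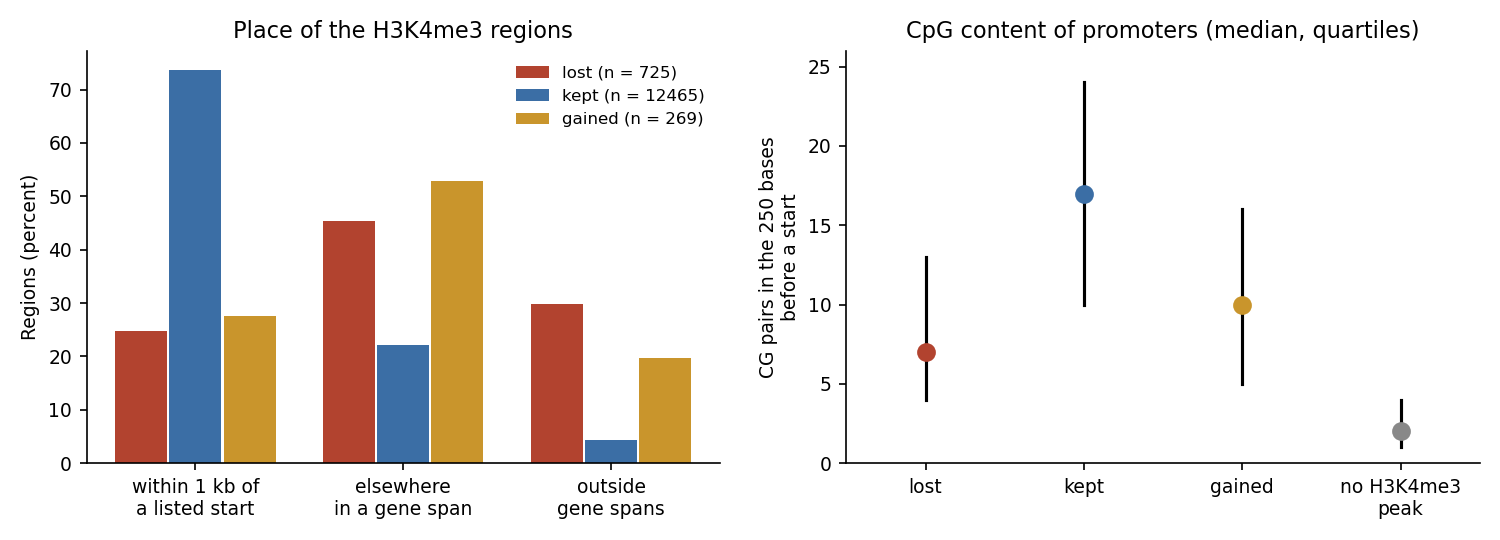
Left, percent of lost, kept and gained H3K4me3 regions (bars) within 1 kb of a listed start, elsewhere in a gene span or outside gene spans, on chromosomes with listed starts. Right, CG pairs in the 250 bases before a start, as median (point) and quartiles (line). Lost starts (median 7) and gained starts (10) lie between kept starts (17) and starts with no H3K4me3 peak (2).

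H3K4me2 was still called over many lost regions. It was found over 80.5% of them in PRM library 1 and 86.0% in PRM library 2, and over 73.6% and 59.4% in PRMK libraries 1 and 2, so both PRMK values were below both PRM values. Over all 23220 regions the shares were 73.2%, 81.2%, 87.2% and 81.7%. Both PRMK libraries had it over 422 lost regions (56.8%), and all 4 libraries over 371. Where it was present it covered nearly the whole region, with a median of 93.4% of the bases in PRMK library 1 and 98.4% in PRMK library 2. The smallest p that an exact permutation test allows for 2 libraries against 2 is 0.33, so no mark was tested. The share of lost regions with H3K4me2 in both PRMK libraries was 40.3% when the regions were chosen without PRM library 1, 47.7% without PRM library 2 and 72.8% when chosen without PRMK library 1.

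H3K4me2 was absent together with H3K4me3 in a smaller set. In 78 lost regions (10.5%) both PRM libraries and neither PRMK library had an H3K4me2 peak, against 1.37% of all 23220 regions and 4 of 12848 kept regions. Kept regions had stronger H3K4me3. The 987 regions with a peak in 1 PRMK library were closer in signal, with median PRM percentiles of 16.6 and 29.8 against 11.1 and 28.2. Of them, 2 (0.203%) had that H3K4me2 pattern. But kept regions and these 987 were chosen for a PRMK H3K4me3 peak, and H3K4me2 was called over 97.6% of the 987 in PRMK library 1. Neither set is therefore an independent comparison for absent H3K4me2 in PRMK. The reverse, H3K4me2 in both PRMK and neither PRM library, was found in 6 lost regions (0.808%) and in 4.72% of all regions. PRMK library 1, whose sample lists the Meis2 guide, had the longest H3K4me2 list, 32410 peaks against 20164 to 23433 in the other 3.

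H3K4me1 was called over 45.9% and 40.4% of lost regions in the PRM libraries and over 47.4% and 35.3% in the PRMK libraries, so the groups overlapped. Over kept regions the same shares were 31.5%, 27.9%, 42.3% and 29.9%, and over all 23220 regions 36.9%, 33.5%, 46% and 34.3%. Both PRMK libraries had H3K4me1 over 249 lost regions (33.5%), all 4 libraries over 195 (26.2%), and none over 312 (42.0%). These shares were near those of all 23220 regions, 32.2%, 23.7% and 46.3%. In 43 regions (5.79%) both PRM and neither PRMK library had it, against 3.42% of all regions, and in 32 (4.31%) the reverse, against 6.08%. Each mark had its own 2 PRMK libraries, and of these only the H3K4me2 samples listed a Meis2 or scrambled guide. The joint counts thus combine calls from different libraries, not marks read in the same library. In both PRMK libraries of each mark, 213 lost regions (28.7%) had the mark. Another 130 (17.5%) had H3K4me2 in both of its libraries and H3K4me1 in neither, and 12 had the reverse. In 154 (20.7%) neither mark was called in either of its PRMK libraries. Among kept regions, 27.7% had both marks, each in both of its PRMK libraries, near the share of lost regions. There 54.6% had H3K4me2 in both and H3K4me1 in neither, and 0.288% had neither mark. Kept regions were chosen for PRMK H3K4me3 peaks, so they are not an independent comparison for regions with neither mark. Of lost regions elsewhere in genes, 41.6% had H3K4me1 in both PRMK libraries, against 30.0% at listed starts and 24.5% outside gene spans. This was not particular to lost regions. The same shares were 35.1%, 25.2% and 34.2% for kept regions, and 49.3%, 25.7% and 26.4% for gained regions.

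**Figure D3:**
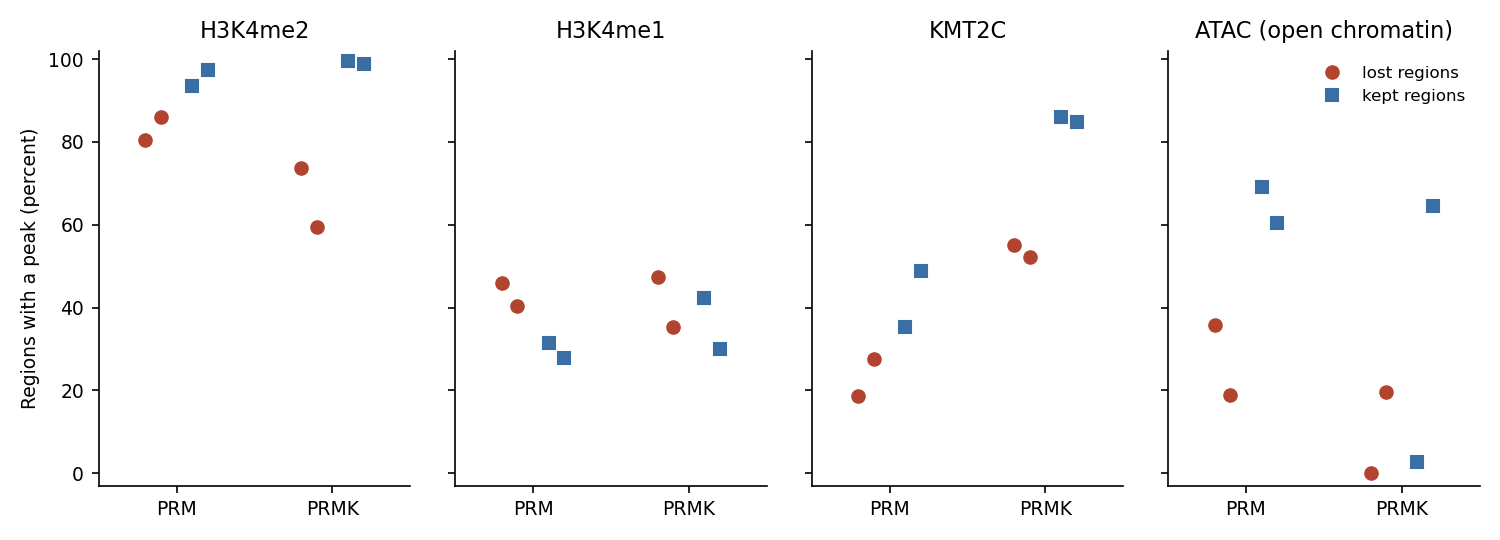
Percent of regions with a peak of H3K4me2, H3K4me1, KMT2C or open chromatin (ATAC), 1 point per library, for lost (circles) and kept (squares) regions in lung PRM and lung PRMK. H3K4me2 over lost regions is lower in both PRMK libraries (73.6% and 59.4%) than in both PRM libraries (80.5% and 86.0%), and H3K4me1 overlaps between the groups.

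KMT2C itself was called over 18.7% and 27.5% of lost regions in the PRM libraries and over 35.3% and 48.8% of kept ones. In the PRMK libraries the shares over lost regions were 55.2% and 52.1% in these tumours, where Kmt2c was the targeted gene. Those lists held 187682 and 134561 peaks, against 9949 and 16681 in PRM, and over kept regions their shares were 86.0% and 84.8%. KMT2C in both PRM and neither PRMK library was found over 7 lost regions (0.942%), against 0.693% of all regions. The reverse was found over 154 lost regions (20.7%), against 28.9% of all regions. Open chromatin was called over 35.7% and 18.8% of lost regions in the PRM libraries, over 0% in PRMK library 1, whose list held only 565 peaks, and over 19.5% in PRMK library 2.

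The widest loss was over the Hoxd cluster, a row of homeobox genes that pattern the body axis and limbs. The widest of all lost regions, chr2:74687884-74705322 (17439 bp), covered the starts of Hoxd10, Hoxd9 and Hoxd8, and the next one, chr2:74705783-74717150 (11368 bp), that of Hoxd3. PRM library 1 had 5 separate peaks there, with total signals from 21824 to 51480. PRM library 2 had broad peaks of 1806419 and 881503, the first at the 99.9 percentile of its list. PRM library 2 thus carried most of the signal. The PRMK libraries had no H3K4me3 peak from 40 kb before to 60 kb after the Hoxd9 start. H3K4me2 followed PRM library 2 alone, with peaks of 787302 and 1599426, and was not called in PRM library 1 or in either PRMK library. H3K4me1 was called around 8.455 to 11.85 kb after the Hoxd9 start in both PRM libraries, and in PRMK library 1 once, at -6.013 to -4.223 kb from it. None of these 4 Hoxd genes has a row in the count table used here.

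**Figure D4:**
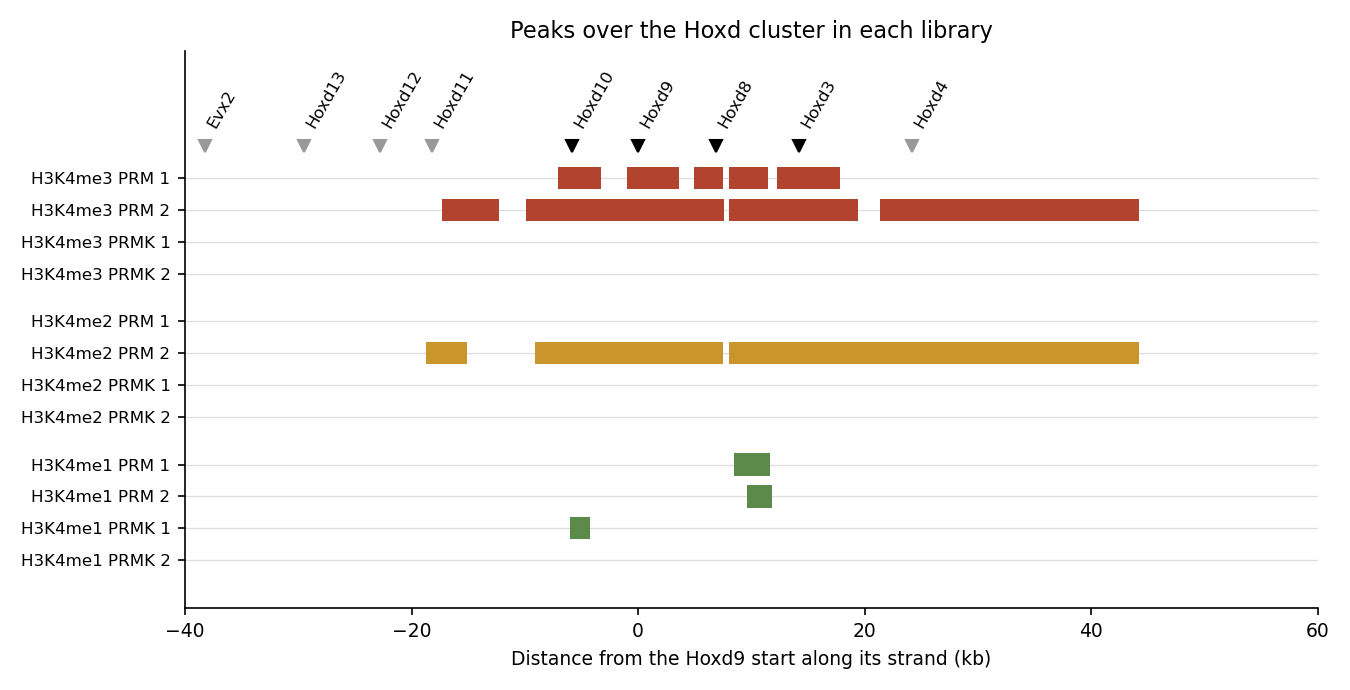
Peaks over the Hoxd cluster in each lung library (bars), by distance from the Hoxd9 start along its strand in kb; black triangles are starts within 1 kb of a lost region and grey ones are other starts. H3K4me3 peaks are present in both PRM libraries and absent from both PRMK libraries, and H3K4me2 is present in PRM library 2 alone.

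The other widest regions differed between the PRM libraries as well. At Ehf, an epithelial ETS transcription factor, chr2:103292280-103304853 had a signal of 698816 in PRM library 1 and 24094 in PRM library 2. At Tmem171, chr13:98687733-98697703 had 671562 and 14489. Both were at or above the 97.9 percentile in library 1 and at the 29.8 and 18.2 percentiles in library 2, whereas the Hoxd8 to Hoxd10 region was at 37.2 and 99.9. A region over the non-coding genes 2600014E21Rik and Gm13652, chr2:75131507-75141703, had 89084 and 516616. H3K4me2 and H3K4me1 were each called in all 4 libraries of the mark at Ehf.

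Among the gene lists described in the processing notes, Meis, Pbx and Hox genes had 4 lost promoters among 23 with a listed start, all Hoxd genes, 2 gained promoters, Hoxb4 and Hoxb8, and 7 kept. The non-neuroendocrine and Notch-YAP list had 1 of 11, Cd44, a hyaluronan receptor. The list of neural and axon genes had 1 of 23, Robo2, a receptor for Slit ligands, with 19 kept, and the germline list had 1 of 14, the X-linked homeobox gene Rhox4a, with none kept. No lost promoter was found among 23 neuroendocrine, 10 DNA methylation, 16 H3K4 methylation, 37 developmental transcription factor, 11 epithelial and 14 mesenchymal, endothelial and blood genes; the developmental list had 1 gained promoter, Gata2. Of the 21 genes on the epithelial list, only 11 have a listed start. Ehf, on that list, had a lost region at a gene end, which these promoter counts leave out. Over all 27025 genes with a listed start, 202 (0.747%) had a lost promoter. Of the study's drivers, Meis1, Meis2, Dnmt3a, Kmt2c and Trp53 had an H3K4me3 peak at a listed start in all 4 libraries, and Rb1 and Myc have no start in the table used here.

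RNA of the genes with a lost promoter was compared next. Of the 202 genes, 130 were protein-coding and 72 long non-coding, 105 had a row in the count table and 88 passed the filter on low counts. Under the looser rule with a library left out, 696 genes had a lost promoter without PRM library 1. There were 381 without PRM library 2 and 497 without PRMK library 1. The 88 genes had a median log2 fold change, PRMK minus PRM, of -0.035. Of them, 45 were below 0 (51.1%), against -0.024 and 51.4% over all 13914 genes tested. Without PRM library 4 the median was 0.42, without PRM library 6 it was 0.38, and over the 71 genes tested with no PRMK peak at any listed start it was -0.209. Fold changes of 3 of these genes with no PRM count depend on the prior count, and with these at their lower bounds the median was -0.035 as well. Their RNA was low in both groups, with median levels of 5.46 CPM (counts scaled to library size, with TMM) in PRM and 4.87 in PRMK, against 41.0 and 40.6 for genes with a kept promoter.

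The edgeR quasi-likelihood test called none of the 88 genes, as it called 0 of 13914 (0%), with 2384 at an unadjusted p under 0.05. At that unadjusted p, 5 of the 88 were lower in PRMK (background 10.1%) and 9 higher (background 7.03%). DESeq2 called 2 lower (background 4.86%) and 7 higher (background 3.90%), and the edgeR likelihood ratio test called 2 lower (background 1.47%) and 5 higher (background 1.80%). Groups did not overlap with PRMK lower in 3 genes (background 14.6%) and with PRMK higher in 16 (background 15.1%). Without PRM library 4, edgeR called 796 of 14251 genes, 3.61% lower and 1.98% higher in PRMK. Of the 93 genes with a lost promoter tested there, none was called lower and 3 were called higher, Atp9a, Btbd11 and Ppp1r3a. That library and PRM library 5 held neuroendocrine markers at levels that PRM library 6 lacked: the 27 of 30 listed markers in the table summed to 10944 and 6240 CPM in PRM libraries 4 and 5, 194.0 in PRM library 6 and 7891 to 10086 in PRMK. The neuroendocrine genes Chga and Syp stood at 3.56 and 6.77 CPM in PRM library 6. The 15 epithelial markers in the table summed to 717, 110 and 4017 CPM in PRM libraries 4, 5 and 6 and to 1216 to 4856 in PRMK. The 18 mesenchymal, endothelial and blood markers summed to 12.8 to 816 in PRM and 551 to 809 in PRMK. Among them, Pecam1 was at or below 2.18 in every library. Col1a1 was 116.9, 0.112 and 6.77 CPM in PRM libraries 4, 5 and 6 and 11.5, 36.75 and 7.6 in PRMK. The part of these markers in the results was not tested. Kmt2c RNA was 113, 187 and 67.6 CPM in PRM and 85.1, 84.4 and 105 in PRMK, with overlap; guides need not lower the RNA of their target, so this does not check the labels. Myc, whose construct both genotypes carried, had 1140, 2306 and 2059 CPM in PRM and 272.5, 311.8 and 205.1 in PRMK. Every PRMK library was thus below every PRM library (log2 fold change -2.8, edgeR adjusted p = 0.158, DESeq2 adjusted p = 1.57e-10). The part of this Myc difference in the RNA results was not tested. In bulk tumours, fewer cells of a type and less RNA per cell cannot be told apart.

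The genes with the lowest p that were lower in PRMK were Runx3, Hrh1, P4ha2 and Pon2. Runx3, a transcription factor with a lost region of 5541 bp at chr4:135150007-135155547, had 57.9, 67.0 and 0.890 CPM in PRM libraries 4, 5 and 6 and 0.684, 1.78 and 1.23 CPM in PRMK. It was high in 2 of 3 PRM libraries, and PRM library 6 lay within the PRMK values, so the groups overlapped (log2 fold change -5.09, SE 1.45; edgeR adjusted p = 0.211, DESeq2 adjusted p = 8.71e-04). Hrh1, the histamine H1 receptor, had 1.05, 1.12 and 1.42 CPM in PRM and 0.241, 0.261 and 0.238 in PRMK. Every PRMK library was below every PRM library, on 5 to 6 counts in each PRMK library (log2 fold change -2.25, SE 0.54; edgeR adjusted p = 0.193, DESeq2 adjusted p = 0.0302). P4ha2, a subunit of the enzyme that hydroxylates collagen proline, had 13.9, 12.1 and 25.1 CPM in PRM and 2.61, 4.80 and 8.64 in PRMK, and Pon2, a paraoxonase, 11.4, 5.72 and 29.6 against 4.66, 5.12 and 5.07. Neither was called by edgeR (adjusted p = 0.242 and 0.276) or DESeq2 (0.0603 and 0.103).

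Other genes whose start lost H3K4me3 had more RNA in PRMK. Ppp1r3a, a subunit that directs protein phosphatase 1 to glycogen, had no count in any PRM library and 796, 117 and 411 counts in PRMK, at least 307-fold higher against a floor of 3 counts over the PRM group. Its lost region, chr6:14749061-14757377, was among the 10 strongest, with 134636 in PRM library 1 and 220873 in PRM library 2, and H3K4me2 was called in both PRM and 1 PRMK library. Rhox4a had no PRM count and 264, 43 and 161 PRMK counts, at least 109-fold higher; it has near-identical Rhox4 copies, among which reads could be divided, so its level is uncertain. Qrfprl, a G protein-coupled receptor gene, had no PRM count and 48, 25 and 21 PRMK counts, at least 21.8-fold higher. For these 3 genes edgeR gave an adjusted p of 0.190 each, and DESeq2 gave 2.82e-10, 6.53e-07 and 0.00217.

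Rap1gap, an activator of the Rap1 GTPase, had 95.9, 54.4 and 26.7 CPM in PRM and 352, 202 and 572 in PRMK. Espn, which encodes the actin bundler espin, had 5.70, 10.6 and 50.4 CPM in PRM and 251, 114 and 434 in PRMK. In both genes every PRMK library was above every PRM library (log2 fold changes 2.67, SE 0.59, and 3.59, SE 0.97; edgeR adjusted p = 0.190 and 0.208, DESeq2 adjusted p = 8e-04 and 0.00297). Their lost region was at 1 start among several: 4 of the 7 listed starts of Rap1gap and 1 of the 3 of Espn had a PRMK H3K4me3 peak. Btbd11, with 59.4, 16.4 and 10.8 CPM in PRM and 140, 80.1 and 139 in PRMK, likewise kept a peak at 1 of its 2 starts. Col15a1, a collagen chain, and Moxd1, a monooxygenase, had no other listed start. Col15a1 had 4.81, 2.64 and 3.29 CPM in PRM and 10.0, 18.9 and 10.5 in PRMK (edgeR adjusted p = 0.198, DESeq2 adjusted p = 0.00362), and Moxd1 1.20, 0.504 and 0.445 against 2.01, 3.03 and 2.30. Robo2, also with a PRMK peak at 1 of 3 starts, had 5.12, 74.1 and 4.36 CPM in PRM and 97.1, 101 and 82.2 in PRMK. Its groups did not overlap, but PRM library 5 came close to PRMK (edgeR adjusted p = 0.452).

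**Figure D5:**
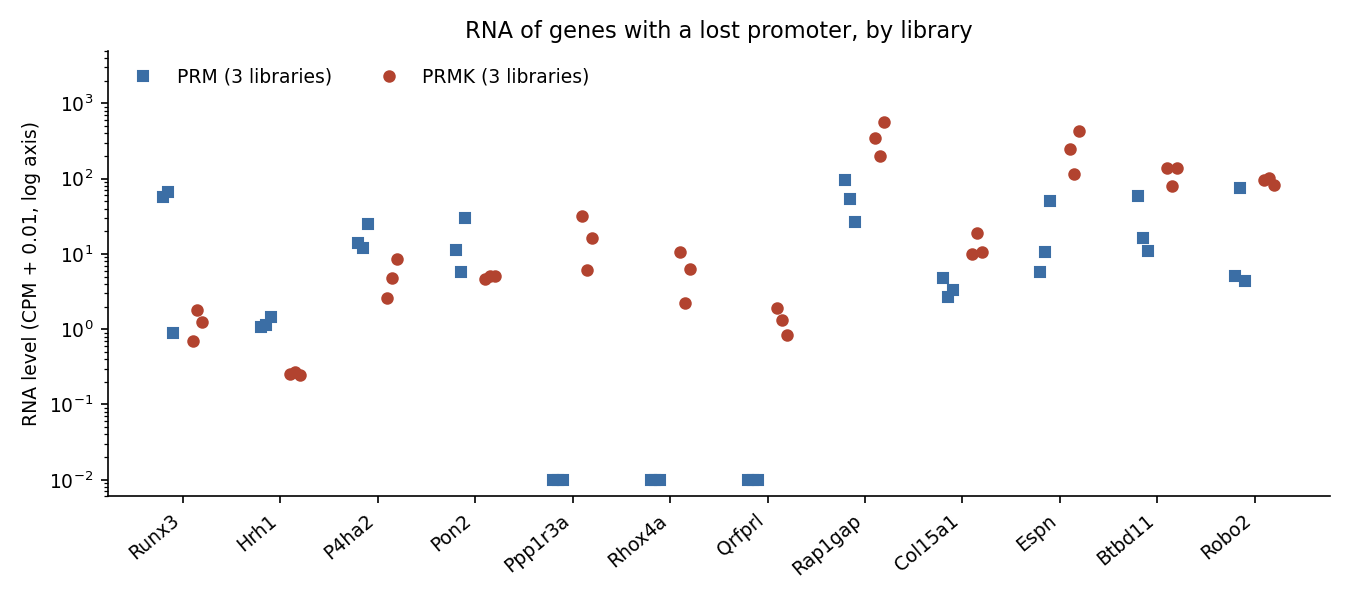
RNA level of 12 genes with a lost promoter, as CPM plus 0.01 on a log axis, 1 point per library, for PRM (squares) and PRMK (circles). Runx3, Hrh1, P4ha2 and Pon2 are lower in PRMK, with 1 PRM library of Runx3 among the PRMK values; the others have more RNA in PRMK, and Ppp1r3a, Rhox4a and Qrfprl have no PRM count.

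Among genes at other strong lost promoters, Kirrel had 41.7, 15.6 and 88.3 CPM in PRM and 27.4, 29.7 and 16.6 in PRMK (edgeR adjusted p = 0.455). Mamld1 had 3.35, 9.31 and 1.69 CPM in PRM and 5.27, 2.98 and 3.76 in PRMK, and Zfp882, a zinc finger gene, 11.6, 4.88 and 2.23 against 7.92, 6.68 and 8.16. Asic2 had 8.62, 5.33 and 0.712 CPM in PRM and 1.29, 2.61 and 0.277 in PRMK. The groups overlapped in each of these 4 genes, unlike in Ppp1r3a, and their edgeR adjusted p was 0.438 to 0.874. At regions inside or at the end of a gene, Tcerg1l had 14.8, 7.90 and 0.267 CPM in PRM and 29.2, 64.6 and 118 in PRMK, and Sdc2 2.72, 0.224 and 14.2 against 47.6, 61.6 and 22.1. Tcerg1l and Sdc2 were thus higher in every PRMK library (edgeR adjusted p = 0.267 and 0.306, DESeq2 adjusted p = 0.0456 and 0.0944). Kcns3, a potassium channel subunit, and the kinase gene Lrrk1, at 2 other strong regions, have no row in the count table used here, nor do Npy and Cd44.

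By remaining H3K4me2, the 39 tested genes with the mark in all 4 libraries over their lost region had a median log2 fold change of -0.26, and 20 of them were below 0. The 17 with it in both PRM and 1 PRMK library had a median of -0.40, with 12 below 0. The 26 with other patterns had a median of 0.107, with 13 below 0. The 6 tested genes whose region had H3K4me2 in both PRM and neither PRMK library had a median of 0.90 and none below 0; they were Atp9a, Il22ra1, Aff2, Gm3488, Zfp882 and Snrpn, and none was called by edgeR. Atp9a had a PRMK H3K4me3 peak at 3 of its 4 listed starts, and the groups overlapped in all but Aff2 and Gm3488. Snrpn, an imprinted gene of the Prader-Willi cluster, had 19.6, 15.9 and 0.801 CPM in PRM and 20, 16.6 and 10.7 in PRMK. The 46 tested genes with no H3K4me1 peak over their region in any library had a median of -0.20, and 25 were below 0.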

How the data were processed

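CUT&Tag, an antibody-directed tagmentation assay, was done on 2 lung PRM and 2 lung PRMK libraries per mark. Per the submitters' processing notes, the authors used Bowtie2 (mm10) and the peak caller SEACR. Each deposited peak carries its summed and its maximal signal; sources used here name neither the control for calling nor the depth. The deposited open-chromatin lists carry a caller's score per peak, and stretches scored -1 were left out. The authors aligned RNA with STAR 2.6.0a to GRCm38 and deposited raw counts per gene, 12013253 to 24123055 per library; whether counting used the strand is not given, so overlapping antisense genes may share reads.

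Merging, overlaps and gene positions were computed in Python 3.11.15 with pandas 2.3.3, and figures with matplotlib 3.10.9. Starts were 32851 RefSeq starts of 27025 genes on GRCm38.p6 (none on chromosome 18), and 12151 of 15479 genes in the count table had one. A promoter was the 1 kb on either side. RNA was tested in R 4.3.3 with edgeR 4.0.16 (TMM, filterByExpr, quasi-likelihood, 2-sided, Benjamini-Hochberg adjusted p under 0.05), on 13914 genes; DESeq2 1.42.0 was an alternative. The edgeR test and the merging of peaks were tested on simulated data. CPM are scaled by TMM.

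Genes were named by rule: those of the 10 strongest lost regions, up to 8 per direction by p without overlap, up to 3 per list (10 lists), the drivers and the 5 widest and farthest regions. Runx3 and the genes of the 9 regions left with stricter PRM peaks, of the runs and of the H3K4me2 set were added after their values were seen. The members, lists and tests were chosen with earlier results of these data known. One gene that the rule names is not reported here.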

Additional observations from a re-analysis of the deposited data

How the results depend on the processing

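Of 80 recomputed values, 49 stayed close to the reported one and 31 moved; merging across gaps of 500 bp, or asking a PRMK peak to cover 20% of a region, moved none. With equal numbers of peaks (14562 per library) there were 330 lost regions of median width 3036 bp, 188 with H3K4me2 and 93 with H3K4me1 in both PRMK libraries. With stricter PRM peaks there were 9, of 4626 bp, 3 with H3K4me2 and 2 with H3K4me1, with 3 genes and a median RNA log2 fold change of -0.981. Leaving out each library in turn gave 803 to 5421 lost regions, median widths of 1642 to 2513 bp, 471 to 2185 regions with H3K4me2 and 287 to 1995 with H3K4me1 in the PRMK libraries, 221 to 696 genes with a lost promoter, and median RNA changes of -0.186 to 0.419. Leaving out an H3K4me3 library also dropped its condition, so higher counts of regions and genes were built in. In every one of these sets the share with H3K4me2 in both PRMK libraries was 33.3% to 72.8%. Leaving out 1 PRMK library of the mark itself gave 441 to 547 regions with H3K4me2 and 262 to 352 with H3K4me1. Windows of 500 bp and 5 kb gave 190 and 283 genes, and either end of a protein-coding gene, added after seeing the data, 190. Genes called in RNA numbered 1218 by DESeq2, 454 by the likelihood ratio test, and 0 to 796 without 1 library (796 without PRM library 4, 0 without any other). The causes were not tested. No paired analysis was possible because the RNA groups share only the replicate number 3, and the peak results come from no test. Depth is unknown for the peak lists, so a missing peak is a region not called, not a region without the mark.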

Other observations

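The lost regions held 2 imprinted loci in which H3K4me2 was also called in both PRM libraries and in neither PRMK library: the region shared by Peg10 and Sgce and that of Snrpn and Snurf. At such loci 1 parental copy is methylated on its DNA and the other carries H3K4me3. A list of 30 imprinted genes was then written, after these values were seen. In it, 4 genes had a lost region at a start or gene end (those named), 15 had a kept one and 1, Ndn, a gained one. Over all 27025 genes with a listed start, 0.747% had a lost promoter, a count that leaves out gene ends. The 4 genes belong to the 2 loci that prompted the list, so these shares cannot be compared. Airn, Kcnq1ot1, Peg3, Mest, Plagl1 and Nnat had kept regions. Sgce had 48.9, 58.0 and 13.9 CPM in PRM libraries 4, 5 and 6 and 12.1, 2.56 and 36.1 in PRMK, with overlap between the groups (edgeR adjusted p = 0.532). Ndn had 38.2, 5.89 and 0.534 CPM in PRM and 155, 92.7 and 23.2 in PRMK, also with overlap (edgeR adjusted p = 0.384).

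On chromosome Y, 14 of 199 merged regions were lost (7.04%), the highest share of any chromosome. PRM library 2 listed 193 peaks there and the other 3 libraries 14 to 28.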
